A study of Mus musculus with 13 samples.

Results

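Endoplasmic reticulum (ER) folding and unfolded protein response genes were followed across normal, inflamed and tumour-bearing mouse rectum. The set was a list of 36 genes in 6 roles, chosen by function with earlier results of these data known. It held chaperones of the ER lumen, co-chaperones and small ER-stress proteins, and disulfide and proline isomerases. It also held stress sensors and transcription factors, genes of ER-associated degradation, and genes of the translocon. All 36 were measured, out of 19938 genes with a named transcript cluster on the array. The tissue came from mice whose floxed integrin α6 gene is deleted by Villin-Cre, a transgene that drives Cre recombinase in the intestinal epithelium (α6fl/fl Villin-Cre). These mice develop rectal prolapses, in which a pathologist located adenocarcinomas.

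Samples of 3 kinds were hybridised to 13 Affymetrix Mouse Gene 1.0 ST arrays, which probe transcripts along their whole length. Adenocarcinoma was read on 5 arrays (numbers 1, 2, 3, 4 and 6, from mice aged 53 to 80 weeks), and inflamed mucosa beside the tumour on 4 (numbers 1 to 4, 53 to 64 weeks). Normal rectal mucosa of matched control mice was read on 4 (numbers 1, 2, 4 and 6, 53 to 70 weeks). Each group held both sexes. One label field gives all 13 samples, normal ones included, the genotype α6fl/fl Villin-Cre, while another calls the normal samples control. Which alleles the control mice carried was not settled by the labels. Tumour and inflamed tissue was dissected from frozen sections of 50 to 100 µm, whereas normal mucosa was scraped, so dissection and group cannot be told apart in any comparison with normal mucosa. The labels do not say which arrays, if any, came from 1 mouse, so p-values measure the spread between these samples.

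Proteins destined for secretion or for membranes enter the ER through the translocon, fold with the help of lumenal chaperones and isomerases, and are sent to the proteasome by ER-associated degradation when folding fails. Unfolded protein in the lumen activates the sensors IRE1 (Ern1, and Ern2 in mucus-secreting epithelium), PERK (Eif2ak3) and ATF6. IRE1 splices Xbp1 mRNA, PERK raises translation of ATF4, and ATF6 is cleaved to a transcription factor. These factors raise chaperones, isomerases and degradation genes, and under lasting stress ATF4 raises Ddit3 (CHOP), a factor linked to cell death. Goblet cells and plasma cells secrete heavily and carry a large ER. The array reads the mRNA level of a gene. It reads neither Xbp1 splicing as analysed here nor the activity of the sensors.

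The ER stress response element (ERSE) links several members by sequence, and it is shown first because ATF6 and XBP1 act through it. It was searched for as CCAAT and CCACG separated by 9 bases, on both strands, in RefSeq promoters of assembly GRCm38.p6 that run from 250 bases before to 50 bases after a gene's start. Promoters were found for 30 members, of which 8 (26.667%) held an ERSE, against 37 of all 27025 genes with a promoter (0.137%). A match describes the letters only. The members were chosen by function, so the shares are given as a description and were not tested. The promoter of Hspa5, which encodes the chief lumenal chaperone BiP, lies at chr2:34771840-34772139 on the plus strand. That of Hsp90b1, the lumenal HSP90 (GRP94), lies at chr10:86705395-86705694 on the minus strand and held 2 matches, the second on the opposite strand to the gene. The promoter of Dnajb9, at chr12:44210019-44210318 on the minus strand, held none and is shown because this gene went the other way from most chaperones in tumours. It is not typical of its kind, as 6 of the 22 members with a promoter and no ERSE rose in adenocarcinoma and 3 fell. Capitals mark the ERSE.
Hspa5: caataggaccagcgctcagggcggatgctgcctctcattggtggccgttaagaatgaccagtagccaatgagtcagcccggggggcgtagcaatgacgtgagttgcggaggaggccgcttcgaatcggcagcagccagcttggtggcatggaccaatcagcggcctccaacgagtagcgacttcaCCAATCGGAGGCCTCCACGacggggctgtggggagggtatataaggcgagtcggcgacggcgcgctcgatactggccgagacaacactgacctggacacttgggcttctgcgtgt
Hsp90b1: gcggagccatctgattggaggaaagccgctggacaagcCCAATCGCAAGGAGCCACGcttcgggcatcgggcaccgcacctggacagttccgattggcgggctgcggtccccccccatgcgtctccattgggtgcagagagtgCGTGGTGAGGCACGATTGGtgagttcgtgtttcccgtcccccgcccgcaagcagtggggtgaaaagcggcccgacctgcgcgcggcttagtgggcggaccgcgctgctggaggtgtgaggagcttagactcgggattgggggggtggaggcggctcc
Dnajb9: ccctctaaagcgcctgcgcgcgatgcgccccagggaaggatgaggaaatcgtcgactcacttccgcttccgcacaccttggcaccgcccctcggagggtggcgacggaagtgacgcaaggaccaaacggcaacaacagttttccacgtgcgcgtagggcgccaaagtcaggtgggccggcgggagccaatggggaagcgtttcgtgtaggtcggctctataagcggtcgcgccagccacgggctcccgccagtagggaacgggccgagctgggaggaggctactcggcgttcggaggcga

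The ERSEs of the other members are given as read on the motif's own strand, with CCAAT and CCACG in capitals, so that the spacer can be compared between genes. They stand on chromosome 8 in Calr, 11 in Canx, 15 in Creld2, 14 in Dnajc3, 12 in Pdia6 and 19 in Syvn1.
Calr: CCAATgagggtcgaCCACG
Canx: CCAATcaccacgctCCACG
Creld2: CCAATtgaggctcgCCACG
Dnajc3: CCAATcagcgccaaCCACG
Pdia6: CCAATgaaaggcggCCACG
Syvn1: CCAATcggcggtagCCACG
The spacers differ in every one of these genes, while the flanking boxes are fixed by the search. A shorter form, ERSE-II (ATTGG, any base, CCACG), was found in 2 members, against 12 of all promoters (0.0444%). The capitals mark its fixed bases.
Herpud1: ATTGGgCCACG
Dnajb11: ATTGGcCCACG
No member held both forms. The core of the XBP1 element, TGACG followed directly by TGG, was in 0 of the 30 members and in 193 of all promoters (0.714%). The C/EBP-ATF core (TGATG, any base, AA), where ATF4 and CHOP bind, was in 2 members, Herpud1 and Trib3, and in 1219 of all promoters (4.51%).

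In adenocarcinoma, 15 of the 36 genes rose and 3 fell against normal mucosa in a limma fit of all 3 groups (Benjamini-Hochberg adjusted p below 0.05 over 19938 genes). Over all genes 16.4% rose and 19.4% fell, 35.8% in all, against 41.7% and 50.0% of the members for rises and for calls in either direction. In inflamed mucosa 14 members (38.9%) rose and 0 fell, beside 13.7% of all genes that rose, 13% that fell and 26.7% called. The median log2 difference over all 36 members was 0.24 for adenocarcinoma and 0.25 for inflamed mucosa, against -0.10 for adenocarcinoma and -0.09 for inflamed mucosa over all genes. Both comparisons share the 4 normal arrays. Adenocarcinoma against inflamed mucosa gave 1 rise and 1 fall among the members (5.56%), beside 2.91% of all genes that rose, 4.21% that fell and 7.12% called, and a median of -0.02.

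Levels depend on how arrays are scaled. Centring each array on the median of its named genes, chosen after seeing the data, moved the median of all genes to -0.24 for adenocarcinoma and to -0.28 for inflamed mucosa. The members' medians became 0.10 in adenocarcinoma and 0.06 in inflamed mucosa. Such centring shifts every gene of an array alike, so the members' distance from the median of all genes, 0.34 in adenocarcinoma and 0.35 in inflamed mucosa, is unchanged by construction. Cyclic loess, which can move it, gave 0.29 in adenocarcinoma and 0.32 in inflamed mucosa. The counts that follow are for the centred arrays (the gene-median scale). There 13 members rose and 6 fell in adenocarcinoma, and 10 rose and 4 fell in inflamed mucosa. Over all 19938 genes, 2491 rose and 8612 fell in adenocarcinoma, and 1875 rose and 9510 fell in inflamed mucosa. Of all genes called, 22.4% were rises in adenocarcinoma and 16.5% in inflamed mucosa on that scale, against 45.8% and 51.3% on the deposited scale. For adenocarcinoma against inflamed mucosa, where 2 members rose and 0 fell on that scale, the share was 51.2%, against 40.9% on the deposited scale. Over all genes 728 rose and 694 fell in that comparison on the gene-median scale.

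**Figure D1:**
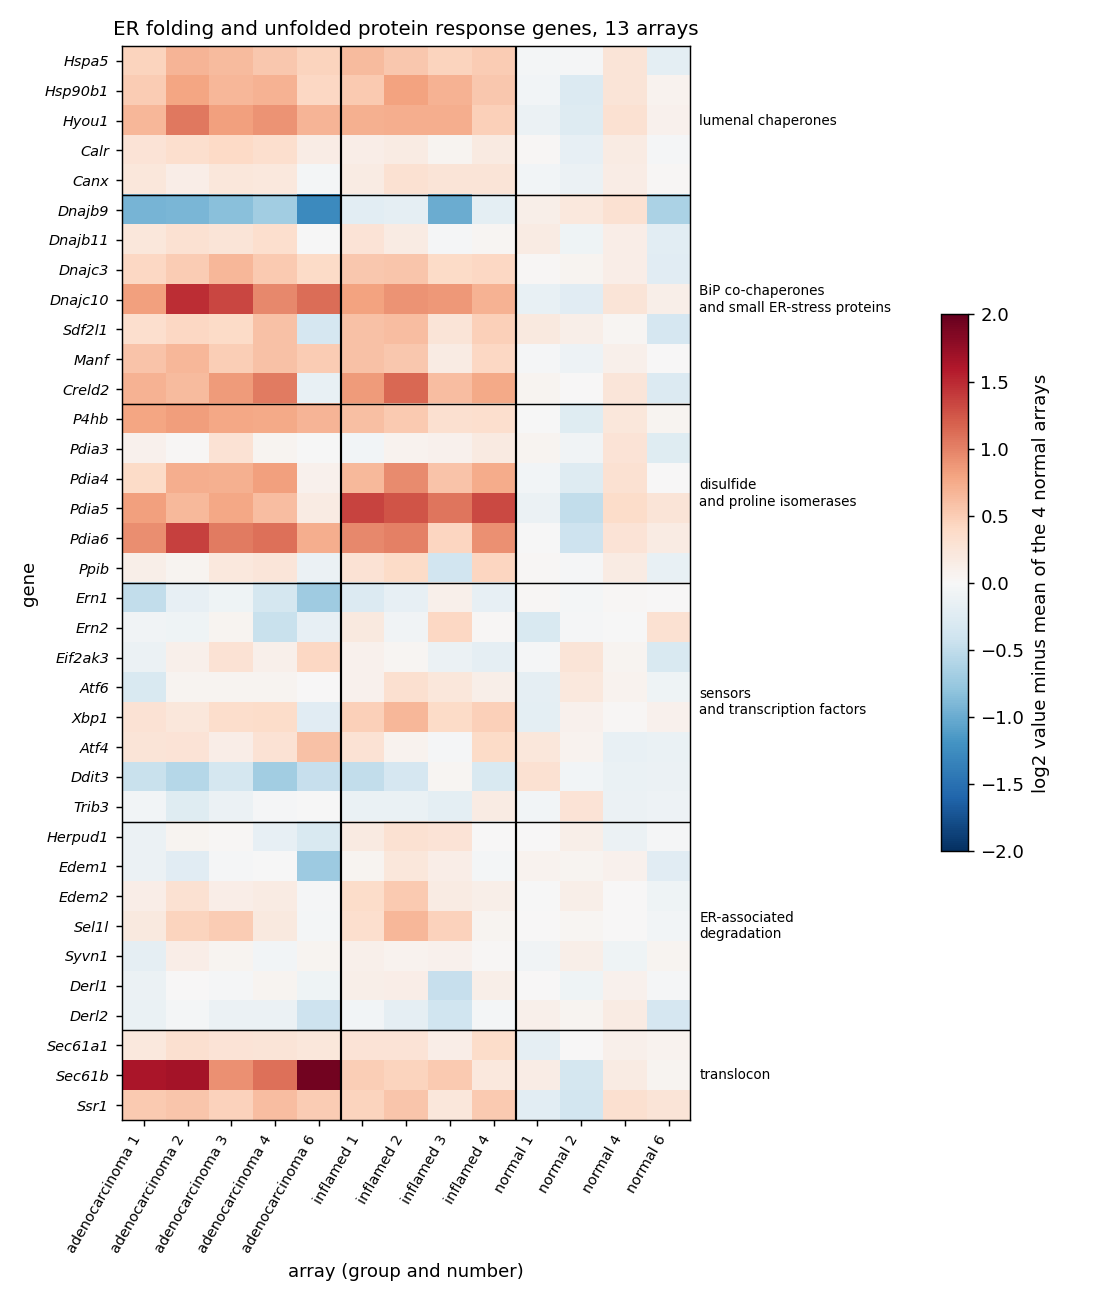
Colour gives each gene's log2 value minus its mean over the 4 normal arrays, with genes as rows by role and the 13 arrays as columns (5 adenocarcinoma, 4 inflamed, 4 normal). Hspa5, Hsp90b1, Hyou1, most isomerases, Sec61b and Ssr1 are red in both diseased groups. Calr, Canx, Sec61a1 and most sensors and degradation genes stay pale. Adenocarcinoma 6 is paler than the other tumours in several rows.

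**Figure D2:**
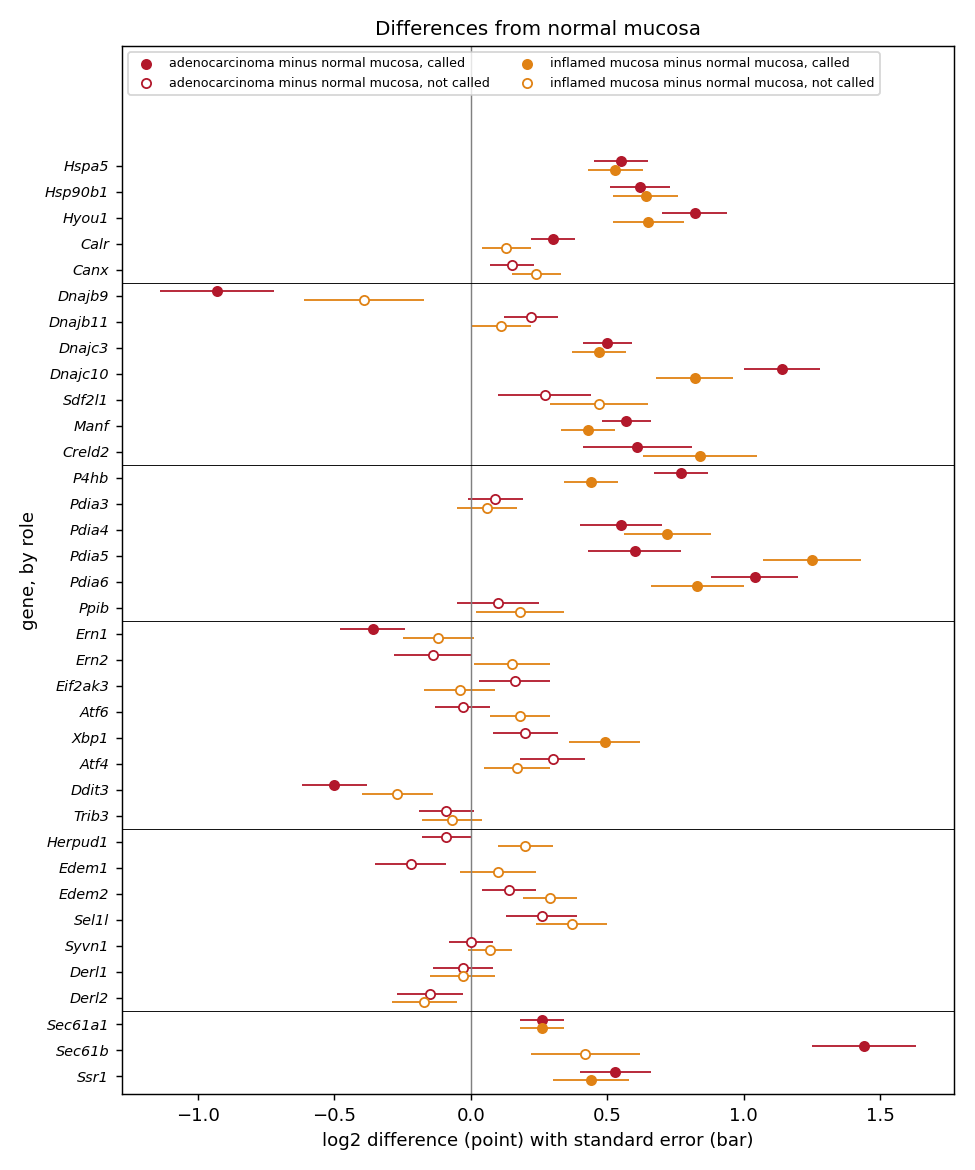
Points are log2 differences from normal mucosa and bars their standard errors, red for adenocarcinoma (5 arrays) and orange for inflamed mucosa (4 arrays), both against the same 4 normal arrays. Filled points passed limma's adjusted p below 0.05. Dnajb9, Ern1 and Ddit3 are the filled points left of 0, and Sec61b lies at 1.44, a value that was 1.03 with its cluster numbered among chromosome 4 genes.

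Chaperones of the ER lumen were higher in both diseased groups. Of 5, 4 rose in adenocarcinoma and 3 in inflamed mucosa, and none fell. The counts of this role and of those below stand beside the shares of all genes given above. These were 16.4% risen and 35.8% called in adenocarcinoma, and 13.7% risen and 26.7% called in inflamed mucosa. Hspa5 (BiP) read 11.59, 11.83, 11.78, 11.69 and 11.59 log2 units in adenocarcinomas 1, 2, 3, 4 and 6. It read 11.78, 11.69, 11.59 and 11.65 in inflamed mucosa 1 to 4, and 11.11, 11.13, 11.41 and 10.95 in normal mucosa 1, 2, 4 and 6. Every tumour and inflamed array lay above every normal one. The difference from normal mucosa was 0.55 ± 0.10 (SE) in adenocarcinoma, a 1.46-fold rise with an adjusted p of 0.000647 by limma, and 0.53 ± 0.10 in inflamed mucosa (adjusted p = 0.00194). The tumours and the inflamed arrays overlapped, with a difference of 0.02 ± 0.10.

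Hyou1, a large chaperone that exchanges nucleotide on BiP, averaged 9.77 ± 0.16 in adenocarcinoma (SD, n = 5), 9.61 ± 0.13 in inflamed mucosa and 8.95 ± 0.25 in normal mucosa (n = 4 each). That is the largest rise among the lumenal chaperones in adenocarcinoma, 1.76-fold. Hsp90b1 (GRP94), which folds integrins and Toll-like receptors, ran from 11.42 to 11.79 in adenocarcinoma, 11.53 to 11.80 in inflamed mucosa and 10.72 to 11.25 in normal mucosa, and the means lay 1.53-fold (adenocarcinoma) and 1.56-fold (inflamed mucosa) above normal mucosa. Calr and Canx are the lectin chaperones of the calreticulin and calnexin cycle. Calr rose 1.23-fold in adenocarcinoma (adjusted p = 0.0122 by limma) and differed by 0.13 ± 0.09 in inflamed mucosa, and its call was lost on the gene-median scale (adjusted p = 0.113). Canx differed by 0.15 ± 0.08 in adenocarcinoma (adjusted p = 0.157) and 0.24 ± 0.09 in inflamed mucosa (0.0517), and passed in neither.

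Co-chaperones and small ER-stress proteins split. Of 7, 4 rose in each diseased group (Dnajc3, Dnajc10, Manf and Creld2), 1 fell in adenocarcinoma (Dnajb9), and Dnajb11 and Sdf2l1 passed in neither comparison. Dnajc10 (ERdj5), a disulfide reductase that hands misfolded proteins to degradation, read 9.16, 9.82, 9.67, 9.30 and 9.45 in the 5 adenocarcinomas. It read 9.15, 9.24, 9.21 and 9.03 in inflamed mucosa, and 8.19, 8.12, 8.59 and 8.45 in normal mucosa. All 9 diseased arrays lay above all 4 normal ones, by 1.14 ± 0.14 on average in tumours (2.20-fold, adjusted p = 2.86e-05 by limma) and by 0.82 ± 0.14 in inflamed mucosa (1.76-fold, adjusted p = 0.00103).

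Creld2, a secreted ER-stress protein with disulfide isomerase activity, read 10.18, 10.11, 10.33, 10.52 and 9.33 in the 5 adenocarcinomas. It read 10.33, 10.63, 10.10 and 10.23 in inflamed mucosa, and 9.53, 9.49, 9.72 and 9.20 in normal mucosa. Adenocarcinoma 6 lay inside the normal range, and the other 4 tumours and all inflamed arrays above it. The rise was 1.79-fold in inflamed mucosa (adjusted p = 0.0107 by limma) and 1.52-fold in adenocarcinoma (0.0307). The tumour call was lost without any one of adenocarcinomas 1, 2, 3 and 4 or normal arrays 2 and 6 (adjusted p from 0.0508 to 0.0791).

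Dnajc3 (p58IPK), a co-chaperone that binds unfolded clients, rose 1.42-fold in adenocarcinoma and 1.39-fold in inflamed mucosa. Manf, a small ER-resident protein that can be secreted as a trophic factor, rose 1.48-fold in adenocarcinoma and 1.35-fold in inflamed mucosa, the second call being lost on the gene-median scale (0.24, adjusted p = 0.0547 by limma). Dnajb11 (ERdj3), which brings clients to BiP, differed by 0.22 ± 0.10 in adenocarcinoma and 0.11 ± 0.11 in inflamed mucosa. Sdf2l1, its partner in a BiP complex, differed by 0.27 ± 0.17 in adenocarcinoma and 0.47 ± 0.18 in inflamed mucosa. Sdf2l1 reached an adjusted p of 0.0187 in tumours once adenocarcinoma 6 was left out (difference 0.42).

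Dnajb9 (ERdj4), a co-chaperone known to hold IRE1 in its inactive form through BiP, ran against the rest. It read 9.56, 9.57, 9.65, 9.79 and 9.21 in the 5 adenocarcinomas, 10.28, 10.31, 9.49 and 10.30 in inflamed mucosa, and 10.60, 10.70, 10.79 and 9.86 in normal mucosa. Every tumour lay below every normal array, and inflamed mucosa 3 lay among the tumours. Dnajb9 fell by 0.93 on the log2 scale in adenocarcinoma (1.91-fold, adjusted p = 0.00355 by limma). Inflamed mucosa differed by -0.39 ± 0.22 (adjusted p = 0.182), which passed the threshold without normal array 6 (-0.60, adjusted p = 0.0323). With a pooled SD of 0.35 it was the most variable member within groups, against a median of 0.17 over all genes.

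The disulfide isomerases held the largest single rise in inflamed mucosa. Of 6 isomerases, 4 rose in adenocarcinoma and 4 in inflamed mucosa, in both cases P4hb, Pdia4, Pdia5 and Pdia6, while Pdia3 and Ppib passed in neither. Pdia5, an isomerase known to act on ATF6 during stress, read 9.37, 9.20, 9.33, 9.16 and 8.71 in the 5 adenocarcinomas. It read 9.90, 9.81, 9.62 and 9.87 in inflamed mucosa, and 8.43, 8.06, 8.92 and 8.81 in normal mucosa. Inflamed mucosa stood highest with no overlap with either other group, and adenocarcinoma 6 lay inside the normal range. The rise over normal mucosa was 2.38-fold in inflamed mucosa (1.25 ± 0.18, adjusted p = 0.000239 by limma) and 1.52-fold in adenocarcinoma (0.60 ± 0.17, adjusted p = 0.0152). Without normal array 2 the tumour call was lost (adjusted p = 0.0523).

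Pdia6, which works with BiP and is known to limit IRE1 signalling, read 9.94, 10.38, 10.05, 10.11 and 9.74 in the 5 adenocarcinomas. It read 9.97, 10.01, 9.44 and 9.92 in inflamed mucosa, and 9.0, 8.59, 9.29 and 9.17 in normal mucosa. The diseased arrays all lay above the normal ones, by 1.04 ± 0.16 in adenocarcinoma (2.05-fold, adjusted p = 0.000302 by limma) and 0.83 ± 0.17 in inflamed mucosa (1.77-fold, adjusted p = 0.00354). P4hb, the classical protein disulfide isomerase, averaged 11.90 ± 0.06 in adenocarcinoma, 11.58 ± 0.14 in inflamed mucosa and 11.13 ± 0.19 in normal mucosa, with no overlap between any of the groups. It rose in both diseased groups, but in inflamed mucosa not on the gene-median scale (0.25, adjusted p = 0.0636 by limma). Pdia4 rose 1.46-fold in adenocarcinoma and 1.65-fold in inflamed mucosa, and lost its tumour call without normal array 2 (adjusted p = 0.0529). Pdia3, which serves glycoproteins bound to calnexin, differed by 0.09 ± 0.10 in adenocarcinoma and 0.06 ± 0.11 in inflamed mucosa. Ppib, the lumenal cyclophilin B, differed by 0.10 ± 0.15 in adenocarcinoma and 0.18 ± 0.16 in inflamed mucosa.

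Sensors and transcription factors gave 3 calls in the comparisons with normal mucosa. Of 8, 0 rose and 2 fell in adenocarcinoma (Ern1 and Ddit3), and 1 rose and 0 fell in inflamed mucosa (Xbp1). Over all genes 35.8% were called in adenocarcinoma, with 19.4% lower, and 26.7% in inflamed mucosa, with 13.7% higher. Calls in either direction were thus no more frequent among these 8 genes than among all genes. Ern1 (IRE1α) read 8.93, 9.26, 9.34, 9.07 and 8.71 in the 5 adenocarcinomas, 9.15, 9.26, 9.52 and 9.26 in inflamed mucosa, and 9.44, 9.38, 9.44 and 9.43 in normal mucosa. Every tumour lay below every normal array, and inflamed mucosa overlapped both groups. It fell by 0.36 in adenocarcinoma (1.28-fold, adjusted p = 0.0323 by limma) and differed by -0.12 ± 0.13 in inflamed mucosa. The tumour call was lost when any one of adenocarcinomas 1, 4 and 6 or any one normal array was left out (adjusted p from 0.0550 to 0.0630).

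Ern2 (IRE1β), the epithelial form, read 9.89, 9.87, 10.02, 9.51 and 9.80 in the 5 adenocarcinomas, 10.16, 9.89, 10.37 and 9.98 in inflamed mucosa, and 9.66, 9.94, 9.95 and 10.26 in normal mucosa. The 3 groups overlapped and no comparison passed. Xbp1, the mRNA that IRE1 splices, read 11.78, 11.71, 11.84, 11.85 and 11.26 in the 5 adenocarcinomas, 11.96, 12.15, 11.87 and 11.97 in inflamed mucosa, and 11.30, 11.58, 11.52 and 11.57 in normal mucosa. Every inflamed array lay above every tumour and normal array, and adenocarcinoma 6 was the lowest array of all. Xbp1 rose 1.41-fold in inflamed mucosa (0.49 ± 0.13, adjusted p = 0.0117 by limma). Its difference in adenocarcinoma was 0.20 ± 0.12 (adjusted p = 0.205), which passed once adenocarcinoma 6 was left out (0.30, adjusted p = 0.0229).

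Ddit3 (CHOP) read 7.26, 7.14, 7.36, 7.01 and 7.25 in the 5 adenocarcinomas, 7.22, 7.38, 7.75 and 7.41 in inflamed mucosa, and 8.01, 7.66, 7.57 and 7.59 in normal mucosa. The tumours all lay below the normal arrays, while inflamed mucosa overlapped both. It fell by 0.50 in adenocarcinoma (1.42-fold, adjusted p = 0.00636 by limma), and inflamed mucosa differed by -0.27 ± 0.13 (adjusted p = 0.134). Ddit3 did pass as lower in inflamed mucosa without inflamed array 3 (-0.37, adjusted p = 0.0433 by limma) and on the gene-median scale (-0.46, 0.0112). Atf4, whose protein drives Ddit3, read 7.78, 7.80, 7.67, 7.82 and 8.11 in the 5 adenocarcinomas, 7.82, 7.60, 7.5 and 7.91 in inflamed mucosa, and 7.76, 7.60, 7.38 and 7.39 in normal mucosa. Its groups overlapped, and the tumour difference of 0.30 ± 0.12 lay just short of the threshold (adjusted p = 0.0571). Trib3, a pseudokinase induced by ATF4 and CHOP, differed by -0.09 ± 0.10 in adenocarcinoma and -0.07 ± 0.11 in inflamed mucosa. For Eif2ak3 (PERK) the difference was 0.16 ± 0.13 in adenocarcinoma and -0.04 ± 0.13 in inflamed mucosa. For Atf6 it was -0.03 ± 0.10 in adenocarcinoma and 0.18 ± 0.11 in inflamed mucosa.

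**Figure D3:**
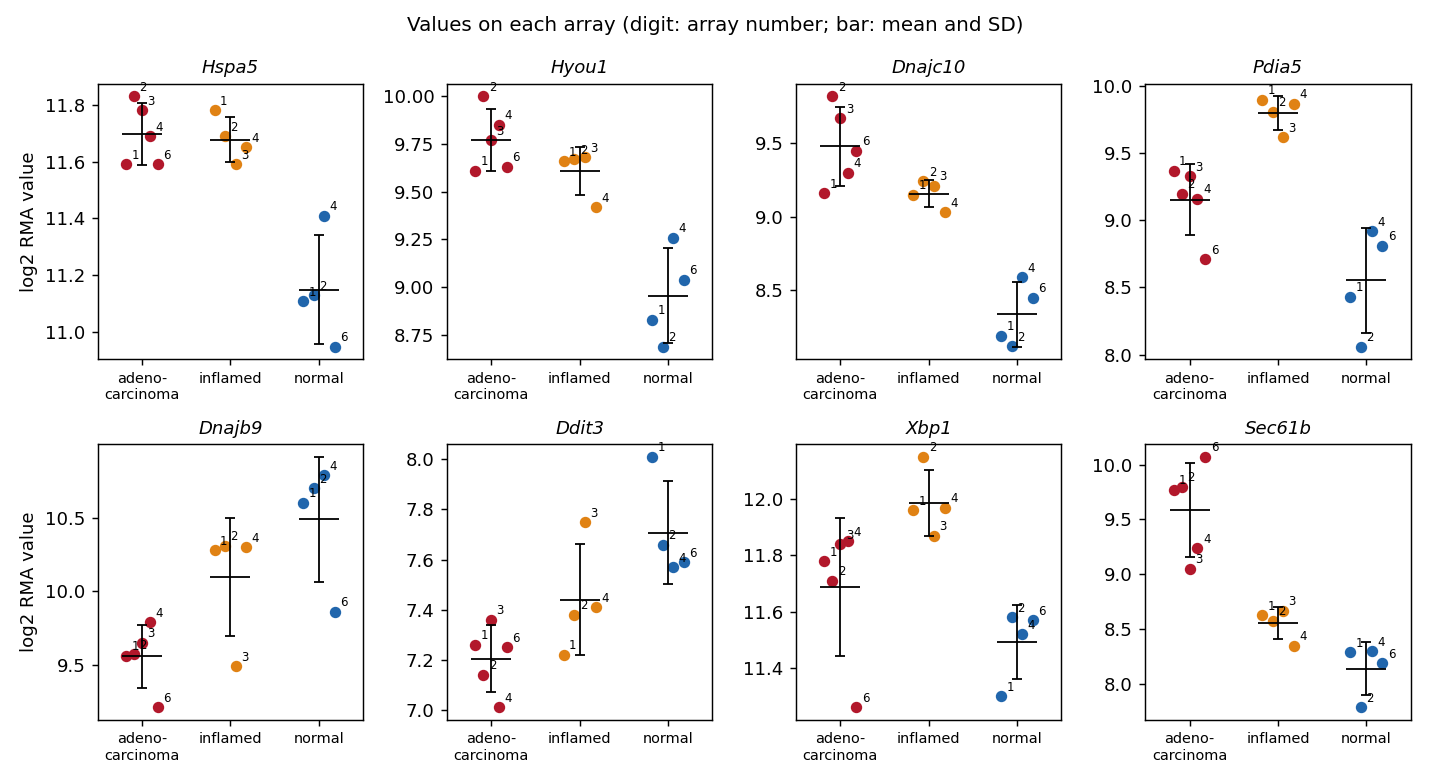
Each point is the log2 RMA value of 1 array with its number, for 8 genes in adenocarcinoma (5 arrays), inflamed mucosa (4) and normal mucosa (4), with the mean and SD as bars. Axes are cropped and differ between panels. Hspa5, Hyou1 and Dnajc10 stand above normal mucosa in both diseased groups, Pdia5 and Xbp1 are highest in inflamed mucosa, and Dnajb9 and Ddit3 are lower in adenocarcinoma.

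Genes of ER-associated degradation passed the test in 0 of 7 cases in each of the 3 comparisons with limma. Over all genes 35.8% were called in adenocarcinoma, 26.7% in inflamed mucosa and 7.12% between them. The members are Herpud1, a membrane scaffold; Edem1 and Edem2, which trim mannose from glycoproteins; Sel1l and the ubiquitin ligase Syvn1 (HRD1), which form the central complex; and Derl1 and Derl2, parts of the exit channel. In adenocarcinoma their differences from normal mucosa ran from -0.22 (Edem1) to 0.26 (Sel1l), and in inflamed mucosa from -0.17 (Derl2) to 0.37 (Sel1l). Syvn1 differed by 0.00 ± 0.08 in adenocarcinoma and 0.07 ± 0.08 in inflamed mucosa, with one of the smallest spreads of the set (pooled SD 0.09). Sel1l and Edem2 came near the threshold in inflamed mucosa (adjusted p = 0.0526 and 0.0503 by limma). On the gene-median scale Herpud1, Edem1 and Derl2 passed as lower in adenocarcinoma (adjusted p = 0.0475, 0.0318 and 0.0484), and Derl2 in inflamed mucosa (0.0251).

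Translocon genes rose in 3 of 3 cases in adenocarcinoma and 2 of 3 in inflamed mucosa. Sec61b, the beta subunit of the protein channel, read 9.77, 9.80, 9.05, 9.24 and 10.07 in the 5 adenocarcinomas. It read 8.63, 8.58, 8.67 and 8.35 in inflamed mucosa, and 8.29, 7.79, 8.30 and 8.19 in normal mucosa. The tumours stood above both other groups without overlap, and the inflamed arrays lay narrowly above the normal ones. The rise over normal mucosa was 2.72-fold (1.44 ± 0.19, adjusted p = 6.06e-05 by limma), and inflamed mucosa differed by 0.42 ± 0.20 (adjusted p = 0.124).

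Sec61b has 3 transcript clusters, and the one used, with the highest mean, is numbered among clusters of chromosome 13 genes although Sec61b lies on chromosome 4, so it may read a copy of the gene. The cluster numbered among chromosome 4 genes gave 1.03 for adenocarcinoma (adjusted p = 0.000258 by limma), below Dnajc10 and Pdia6, and 0.25 for inflamed mucosa (0.268). Sec61a1, the channel's pore subunit, rose 1.2-fold in each diseased group (adjusted p = 0.0202 in adenocarcinoma and 0.0324 in inflamed mucosa). Ssr1, a subunit of the translocon-associated protein complex, rose 1.45-fold in adenocarcinoma and 1.36-fold in inflamed mucosa (adjusted p = 0.00698 in adenocarcinoma and 0.0330 in inflamed mucosa). On the gene-median scale Sec61a1 differed by 0.12 in adenocarcinoma (adjusted p = 0.22 by limma) and 0.07 in inflamed mucosa (0.503), and Ssr1 by 0.25 in inflamed mucosa (0.152), so these 3 calls were lost. The Sec61a1 call in inflamed mucosa also ended with the replicate number as a fixed block (0.28, adjusted p = 0.0501), though not as a random block. In inflamed mucosa both genes' calls were lost without any one of inflamed arrays 1, 2 and 4 or normal arrays 1 and 2, and the tumour call of Sec61a1 was lost without normal array 1 (adjusted p = 0.0669).

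Set against the promoters, 6 of the 8 members with an ERSE rose in adenocarcinoma, all but Canx and Syvn1, and 5 in inflamed mucosa, with medians of 0.52 and 0.50. The 22 members with a promoter and no ERSE counted 6 rises and 3 falls in adenocarcinoma and 6 rises in inflamed mucosa, with medians of 0.18 and 0.19. The 13 other measured genes with an ERSE counted 3 rises and 4 falls in adenocarcinoma and 2 rises and 4 falls in inflamed mucosa, with medians of -0.21 and -0.16. Over all genes 16.4% rose and 19.4% fell in adenocarcinoma, and 13.7% rose and 13% fell in inflamed mucosa. Of the 2 ERSE-II genes, Herpud1 and Dnajb11, neither passed in any comparison. Whether the element bears on these levels was not tested.

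Adenocarcinoma and adjacent inflamed mucosa differed in 2 members. Sec61b rose 2.04-fold in adenocarcinoma over inflamed mucosa (1.03 ± 0.19, adjusted p = 0.00442 by limma), or by 0.79 with the chromosome 4 cluster (adjusted p = 0.00903). Pdia5 fell by 0.65 in adenocarcinoma (1.57-fold, adjusted p = 0.0359). That call was lost with the replicate number as a fixed block (-0.62, adjusted p = 0.0893). It held with the number as a random block and when the 4 same-numbered pairs were fitted alone. With sex or age as a covariate, or arrays centred on a median, it was lost (adjusted p from 0.0503 to 0.0645). The call was also lost without any one of adenocarcinomas 2, 4 and 6 or any one inflamed array (0.0501 to 0.0972), although the groups did not overlap. P4hb came next, higher by 0.32 ± 0.10 in adenocarcinoma (adjusted p = 0.0628), and passed when the 4 same-numbered pairs were fitted alone (0.34, adjusted p = 0.0424).

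Within the 4 same-numbered pairs, tumour minus inflamed, Sec61b differed by 1.14, 1.22, 0.38 and 0.89, P4hb by 0.20, 0.30, 0.46 and 0.42, and Pdia5 by -0.52, -0.62, -0.29 and -0.71. In all, 5 members were higher in the tumour in every pair (Calr, Dnajc10, P4hb, Sec61b and Ssr1). Another 6 were lower in every pair (Pdia5, Ern1, Ern2, Atf6, Xbp1 and Herpud1), and 25 had mixed signs. Over all 19938 genes 13.6% were higher and 16.8% lower in the tumour in every pair, which is near the members' shares.

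Beyond the 36 members, 97 further genes of the same pathway were measured, in 6 lists. Their counts stand beside the shares of all genes given above, 16.4% risen and 35.8% called in adenocarcinoma and 13.7% risen and 26.7% called in inflamed mucosa. Of 25 other redox and folding enzymes, 13 rose and 2 fell in adenocarcinoma and 13 rose in inflamed mucosa. Ppic, the secretory cyclophilin C, rose 5.92-fold in adenocarcinoma and 3.96-fold in inflamed mucosa. Fkbp7, an ER proline isomerase, rose 3.09-fold in adenocarcinoma and 3.85-fold in inflamed mucosa. For Mzb1, a chaperone of antibody assembly, the rise was 2.83-fold in adenocarcinoma and 5.70-fold in inflamed mucosa. Of 17 other translocon and signal peptidase genes, 12 rose in adenocarcinoma and 8 in inflamed mucosa and 0 fell. Tram2, which takes part in collagen synthesis, led with 3.64-fold in adenocarcinoma and 4.84-fold in inflamed mucosa. The signal peptidase subunit Sec11c rose 2.08-fold in adenocarcinoma and 2.06-fold in inflamed mucosa. Sec61a2 followed in adenocarcinoma (1.68-fold) and Spcs3 in inflamed mucosa (1.60-fold).

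Of 11 genes of N-glycosylation, 6 rose in adenocarcinoma and 3 in inflamed mucosa. Most of them, though not Mogs and Ganab, encode subunits of the oligosaccharyltransferase, which attaches N-glycans. The subunit Rpn1 rose 1.76-fold in adenocarcinoma and 1.5-fold in inflamed mucosa, and Rpn2 1.62-fold in adenocarcinoma and 1.47-fold in inflamed mucosa. Ostc followed in adenocarcinoma (1.47-fold) and Stt3a in inflamed mucosa (1.31-fold). Of 15 other degradation genes, 3 rose and 4 fell in adenocarcinoma, and 2 rose and 1 fell in inflamed mucosa. Derl3, a derlin, rose 3.25-fold in adenocarcinoma and 6.69-fold in inflamed mucosa, and Vcp, the ATPase that extracts substrates, 1.73-fold in adenocarcinoma and 1.27-fold in inflamed mucosa. Rnf5, a membrane ubiquitin ligase, fell by 0.52 in adenocarcinoma, and Ngly1, which strips N-glycans, fell by 0.35 in inflamed mucosa.

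Among 11 other sensors and factors, 2 rose and 1 fell in adenocarcinoma, and 4 rose and 2 fell in inflamed mucosa. In adenocarcinoma that is 18.2% risen and 27.3% called, near or below the shares of all genes. Casp12, an ER-associated caspase, rose 2.62-fold in adenocarcinoma and 5.88-fold in inflamed mucosa. Creb3l2, an ER-anchored factor for secretory genes, rose 1.74-fold in adenocarcinoma and 2.17-fold in inflamed mucosa. Creb3l1, its relative, rose 1.65-fold in inflamed mucosa, and Bbc3 (PUMA), a cell death gene, fell by 0.37 in adenocarcinoma. Of 18 targets of the PERK-ATF4 branch, 8 rose and 2 fell in adenocarcinoma, and 7 rose and 1 fell in inflamed mucosa. Slc7a11, the cystine carrier, rose 4.55-fold in adenocarcinoma and 2.73-fold in inflamed mucosa. Stc2, a secreted stress glycoprotein, rose 2.87-fold in adenocarcinoma and 3.69-fold in inflamed mucosa. Atf3, a transcription factor induced by stress, fell by 1.36 in adenocarcinoma and by 1.58 in inflamed mucosa.

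Adenocarcinoma against inflamed mucosa moved 5 of these 97 genes, a smaller share than the 7.12% called over all genes. Ppic rose 1.5-fold and Vcp 1.35-fold in adenocarcinoma. Creb3l4 fell by 0.86, Cth, which makes cysteine, by 0.84, and Phgdh, the first enzyme of serine synthesis, by 0.47.

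Marker transcripts of other cell types moved with the groups. In these bulk samples, fewer cells of a type and less RNA per cell cannot be told apart. Of 9 plasma cell markers, 6 rose in adenocarcinoma and 8 in inflamed mucosa, and their mean log2 level per array ran from 7.04 to 8.85 in adenocarcinoma, 8.79 to 9.43 in inflamed mucosa and 6.55 to 7.35 in normal mucosa. Mzb1 and Derl3 above belong to that list too. The antibody joining chain Jchain averaged 11.74 ± 0.74 in adenocarcinoma, 12.23 ± 0.15 in inflamed mucosa and 8.63 ± 1.84 in normal mucosa. No marker can be said to be at 0 on this scale.

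Of 11 goblet cell markers, 4 rose and 4 fell in adenocarcinoma and 4 rose in inflamed mucosa, with means per array of 10.59 to 11.36 in adenocarcinoma, 11.20 to 11.50 in inflamed mucosa and 10.82 to 11.02 in normal mucosa. Mature colonocyte markers fell in 10 of 10 cases in adenocarcinoma and 5 of 10 in inflamed mucosa, with means of 8.64 to 9.78 in adenocarcinoma, 11.24 to 11.37 in inflamed mucosa and 12.05 to 12.28 in normal mucosa. Pan-epithelial markers, 1 up and 3 down of 10 in adenocarcinoma and 5 down in inflamed mucosa, averaged 11.62 to 11.71 in adenocarcinoma, 11.51 to 11.66 in inflamed mucosa and 11.73 to 11.90 in normal mucosa. All 10 fibroblast, all 8 endothelial and 9 of 10 macrophage markers rose in adenocarcinoma, and the same numbers in inflamed mucosa. Smooth muscle markers rose in 8 of 10 cases in adenocarcinoma and 10 of 10 in inflamed mucosa, and proliferation markers in 8 of 9 and 5 of 9, in the same order. Neutrophil markers rose in 8 of 10 cases in adenocarcinoma, and 1 rose and 1 fell in inflamed mucosa. Squamous markers had 0 rises and 1 fall in each, but averaged 8.19 in adenocarcinoma 2 and 9.91 in normal array 1, against 5.67 to 7.34 elsewhere. Single squamous markers were high in further tumours. Krt5, a keratin of basal squamous cells, read 10.70 in adenocarcinoma 3, and Dsg3, a desmosomal cadherin, read 7.27 to 8.63 in the tumours and 4.75 to 5.29 in inflamed mucosa. Without adenocarcinoma 2 and normal array 1, a setting chosen after seeing the data, 12 members rose and 2 fell in adenocarcinoma and 12 rose in inflamed mucosa. With adenocarcinoma 3 left out as well, 10 rose and 3 fell in adenocarcinoma and 11 rose in inflamed mucosa. Over all genes the rises in adenocarcinoma went from 3266 to 2695 and then 2350, and the falls from 3867 to 2461 and then 2121. In inflamed mucosa the rises over all genes went from 2730 to 2251 and then 2172. The part of cell composition in the members' differences was not tested.

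The mean of the 9 plasma cell markers was 7.04 in adenocarcinoma 6, inside the range of the normal arrays (6.55 to 7.35). Jchain, one of the 9, read 10.44 there, just above every normal array (6.18 to 10.35). Of the 15 members that rose in adenocarcinoma, 11 were above every normal array in adenocarcinoma 6, and all 15 were in each of the other 4 tumours. Of all 3266 genes that rose, 90.2% were above every normal array in adenocarcinoma 6 and 88.1% to 96.8% in the others. The members were picked here by the same contrast, so nothing is read from these shares. The members not above in adenocarcinoma 6 were Calr, Creld2, Pdia4 and Pdia5. Hspa5 at 11.59, Dnajc10 at 9.45 and Sec61b at 10.07 lay above every normal array there. That tumour was the lowest of the 5 for 21 of the 36 members, and its mouse was the oldest, at 80 weeks. In inflamed mucosa, array 3 was the lowest of 4 for 20 members, and Ssr1 was the only one of its 14 risen members that array 3 did not hold above every normal array. Among normal arrays, number 4 was the highest for 22 members.

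**Figure D4:**
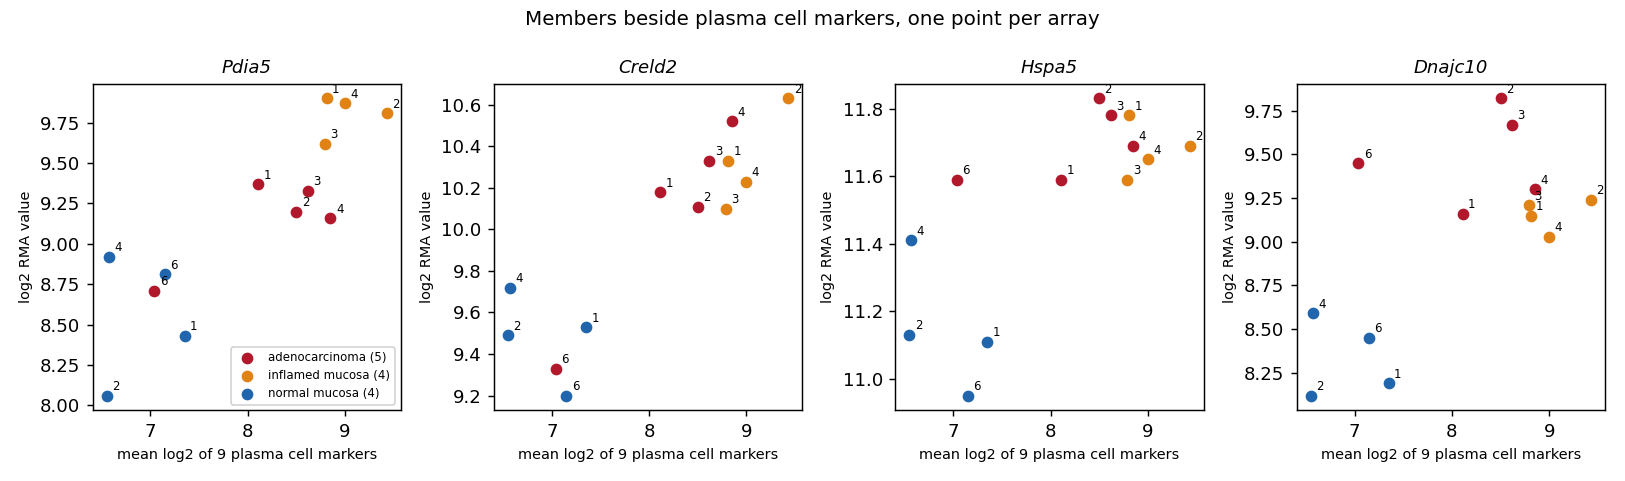
Each point is 1 array with its number, at the mean log2 of 9 plasma cell markers (x axis) and the log2 RMA value of a gene (y axis), for adenocarcinoma (5), inflamed mucosa (4) and normal mucosa (4). Adenocarcinoma 6, at 7.04 on the x axis, lies among the normal arrays for Pdia5 and Creld2 and above them for Hspa5 and Dnajc10. Axes are cropped.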

How the data were processed

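The authors deposited log2 RMA values per transcript cluster, made with Affymetrix Expression Console 1.1 after scanning with Command Console 2.0, per the labels and the design text. The submitters' processing notes also name Partek, with no role. RMA corrects background, gives arrays a common distribution and summarises probes, which compresses the differences of dim genes. Array medians ran from 6.41 to 6.59, and the number of arrays limits the precision.

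The platform annotation, which can be old, pairs 21789 of 35556 clusters with 1 gene and 1621 with several, and does not list the other 12146. Symbols of 21698 were updated through Entrez identifiers to RefSeq GRCm38.p6. The highest-mean cluster was kept per gene (19938 genes, 999 with more than 1 cluster, 3 members among them). The 2 clusters of Dnajc3 hold identical values. No gene was filtered out, and no coordinates of clusters are printed because no source here names their build.

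All genes were tested in 1 limma fit of 3 groups (limma 3.58.1, R 4.3.3, two-sided, Benjamini-Hochberg, adjusted p below 0.05), without a block, and the code was tested on simulated data. Tumour and inflamed arrays of 1 number deviated together from their groups (r = 0.319, 0.198, 0.199 and 0.387 for numbers 1 to 4) and were taken as pairs. The members and lists were chosen with earlier results of these data known. Values per array were printed for the 3 called members with the largest difference per comparison and for Hspa5, Xbp1, Ddit3, Atf4, Ern1 and Ern2. Dnajb9 was added after its values were seen. From each pathway list the 3 called genes with the largest difference per comparison were named. Of 102 pathway symbols 97 were measured, and of 110 marker symbols 107. Alternatives were replicate blocks, sex or age as covariates, 2 groups alone, a filter on dim genes, other scalings, cluster means, eBayes with trend, arrayWeights, a 2-fold threshold and leaving out each array.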

Additional observations from a re-analysis of the deposited data

Results flagged for a closer look

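Among 108 combinations of a member and a group, 11 had 1 array that stood apart by Dixon's criterion, which chance meets in about 1 in 20 groups. Each was the lowest of its group. Adenocarcinoma 6 stood apart for Sdf2l1 (9.39, next tumour 10.06), Xbp1 (11.26, next 11.71) and Derl2 (8.98, next 9.25). Inflamed mucosa 3 stood apart for Dnajb9 (9.49, next 10.28), Pdia6 (9.44, next 9.92), Ppib (11.52, next 12.19) and Derl1 (9.65, next 10.22). Single cases were Hyou1 in inflamed mucosa 4 (9.42, next 9.66), Atf6 in adenocarcinoma 1 (9.19, next 9.49), Ern1 in normal array 2 (9.38, next 9.43) and Edem1 in normal array 6 (10.85, next 11.12). Without inflamed mucosa 3, Ppib and Edem2 passed as higher in inflamed mucosa (0.37, adjusted p = 0.0258 and 0.33, 0.0469 by limma), Ddit3 as lower there (-0.37, 0.0433), and Dnajb9 passed as lower in adenocarcinoma than in inflamed mucosa (-0.74, adjusted p = 0.0397).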

How the results depend on the processing

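Of 3063 member values under the alternatives, 2867 kept direction and side of the threshold, 46 uncalled ones changed sign, 100 lost a call, 50 gained one and 0 called values changed sign. Apart from the 2-fold threshold, 11 of 18 calls in adenocarcinoma, 9 of 14 in inflamed mucosa and 1 of 2 between them (Sec61b) held in every alternative run. Asking also for a 2-fold difference left 3 of the 36 members in adenocarcinoma, 1 in inflamed mucosa and 1 between them. Over all 19938 genes it left 1389 of 7133 calls in adenocarcinoma, 1087 of 5322 in inflamed mucosa and 409 of 1420 between them. Leaving out 1 array at a time gave 14 to 19 calls in adenocarcinoma, 12 to 18 in inflamed mucosa and 1 to 3 between them, with medians of 0.19 to 0.27, 0.22 to 0.32 and -0.07 to 0.00. Over all 19938 genes the same fits gave 5344 to 7645 calls in adenocarcinoma, 3524 to 5786 in inflamed mucosa and 775 to 1652 between them. Between adenocarcinoma and inflamed mucosa, 1 call held with the fixed replicate block, with sex, with age, with arrays centred on their medians and without adenocarcinoma 2 and normal array 1, with or without adenocarcinoma 3, and 5 with arrayWeights. Over all genes 1420 were called in the main fit, 2296 with arrayWeights and 1104 to 1279 in the settings where 1 member call held. The cause of these changes was not tested. Centring on the medians of the named genes moved the members' medians to 0.10 in adenocarcinoma and 0.06 in inflamed mucosa. Besides Pdia5, the fixed replicate block cost Sec61a1 its call in inflamed mucosa (0.28, adjusted p = 0.0501 by limma) and gave Atf4 one in adenocarcinoma (0.35, 0.0474), and changed no other member's call.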
